A study of Mus musculus with 7 samples.

Results

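Calcineurin, its NFAT substrates and the RCAN regulators of calcineurin were followed as transcripts in C2C12 myotubes given electrical pulse stimulation (EPS). The genes are Rcan1, Rcan2, Ppp3ca, Ppp3cb, Ppp3r1, Nfatc1, Nfatc2, Nfatc3 and Nfatc4, chosen by symbol, and all 9 were listed among the 26607 genes of the data. C2C12 is an established line of mouse myoblasts that fuse and become myotubes in low serum. RNA-seq gave 3 libraries of untreated control myotubes, numbered 1, 3 and 4, and 4 libraries of EPS myotubes, numbered 1 to 4. EPS began 3 days after differentiation, lasted 24 h at 1 Hz and was followed by 1 h of rest, so 1 time point after contraction was sampled. All libraries were of the same line, and nothing in the labels says whether the libraries of a group came from separate platings. The p-values therefore measure the spread between these libraries, which may be technical in part.

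Calcineurin is a phosphatase that is switched on by calcium and calmodulin. It is made of a catalytic subunit, encoded by Ppp3ca, Ppp3cb or Ppp3cc, and a regulatory subunit, encoded in most tissues by Ppp3r1. Active calcineurin removes phosphates from the NFATC proteins, which then enter the nucleus and bind DNA, while kinases such as GSK3 and DYRK1A return them to the cytoplasm. In skeletal muscle the pathway is known for linking nerve activity to slow-fiber genes and for its part in myotube growth. RCAN proteins bind calcineurin and can inhibit it, and an internal promoter of Rcan1 is a textbook NFAT target, which makes Rcan1 a feedback gene of the pathway. The activity of the enzyme and the place of NFAT in the cell are properties of proteins and were not measured here.

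The libraries held 16616917 to 22120641 recovered reads. Control replicate 4 stood apart from the others, with 359 genes at 1 to 5 reads where the other libraries had 2670 to 3181. It was the lowest of the 7 libraries in 32.2% and the highest in 18.7% of the genes with a mean of at least 10 CPM, while the others were lowest in 5.95% to 18% and highest in 8.35% to 24.9% of them. For the 9 genes, log2 fold changes that rest on control replicate 4 are therefore given with and without it. So are the medians printed for the lists of related genes. All 10 myotube markers, among them Myog, Myh3, Ckm and Ttn, were above 1 CPM on average. Their summed level was 19178 to 24054 CPM in control and 12635 to 20359 CPM in EPS. The summed level of 10 genes of cycling or undifferentiated myoblasts was 331 to 383 CPM in control and 393 to 1068 CPM in EPS, with 4 of the 10 higher and 2 lower at an unadjusted P under 0.05 in limma, beside 11.6% of all tested genes in either direction, and none past the thresholds given below. Lists of 5 markers each were also checked for immune, endothelial, adipocyte, osteoblast and epithelial cells. Their summed levels in control and EPS were 0.583 to 1.40 and 0.978 to 2.12 CPM for immune, 0.843 to 1.54 and 0.731 to 1.30 CPM for endothelial, 4.25 to 6.32 and 5.76 to 12.6 CPM for adipocyte, 38.9 to 77.9 and 62.5 to 78.3 CPM for osteoblast, and 9.44 to 22.2 and 19.0 to 24.7 CPM for epithelial markers. Listed at 0 in all libraries were Cd3e and Adgre1 (immune), Emcn (endothelial), Plin1 and Cidec (adipocyte), Ibsp (osteoblast) and Epcam (epithelial). The markers with a mean above 1 CPM were Cd68, Pparg, Runx2, Cdh1 and Krt19. Krt19, named after its values were seen, was at 12.7 ± 6.31 CPM in control and 19.8 ± 2.59 CPM in EPS and passed the thresholds only without control replicate 4 (log2 fold change 1.03), and no other marker of these lists passed them with or without it. The part that the content of any of these cells has in the results was not tested, and in such bulk samples fewer cells of a type cannot be told apart from less RNA per cell.

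Rcan1 is shown at its starts because the deposited values are sums over the whole gene and cannot separate its transcripts. RefSeq on GRCm38.p6 places starts of Rcan1 66091 bases apart on the minus strand of chromosome 16. The 250 bases before each start are given 5′ to 3′, with capitals marking GGAAA, the core that NFAT proteins bind, on either strand, and TGANTCA, the AP-1 motif.
Rcan1 distal start, chr16:92466170-92466419: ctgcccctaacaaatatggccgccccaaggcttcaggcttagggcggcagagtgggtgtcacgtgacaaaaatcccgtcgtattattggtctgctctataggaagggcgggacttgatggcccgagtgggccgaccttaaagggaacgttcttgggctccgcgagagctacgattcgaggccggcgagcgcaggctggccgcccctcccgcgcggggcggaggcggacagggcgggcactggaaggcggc
Rcan1 internal start, chr16:92400079-92400328: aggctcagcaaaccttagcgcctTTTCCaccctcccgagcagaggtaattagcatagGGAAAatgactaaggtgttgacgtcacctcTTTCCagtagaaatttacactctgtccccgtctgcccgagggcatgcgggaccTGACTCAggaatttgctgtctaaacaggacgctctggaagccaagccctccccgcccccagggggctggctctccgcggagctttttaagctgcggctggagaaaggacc
The window of the internal start held 3 copies of the GGAAA core and 1 TGANTCA, and the window of the distal start held 0 of either. The motifs do not overlap each other. Of the 32851 windows in the table, 6.39% held at least 3 GGAAA cores, 6.75% held a TGANTCA, and 0.457% held both. Windows were counted for 7 of the 9 genes, all but Ppp3ca and Nfatc1. Nfatc1 was left out of this count by design, so its absence does not show that the table lacks it. Of the 12 windows of these 7 genes, 4 held 3 GGAAA cores, namely the internal start of Rcan1 and windows of Ppp3cb, Nfatc2 and Nfatc4. A match of letters is a description of the sequence, and binding was not measured.

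The question of the comparison was which of these transcripts differed between stimulated and unstimulated myotubes. The thresholds were P under 0.01 before adjustment and a fold above 2 in limma on log2(CPM + 1), where CPM is the reads of a gene scaled to its library's total. They were passed by 0 of the 9 genes, beside 1.41% of the 19144 tested genes, or 0.966% higher and 0.439% lower in EPS. An adjusted p under 0.05 was reached by 0 of the 9, beside 0.141% of all genes. At an unadjusted P under 0.05 there was 1 of the 9, Nfatc1, which was higher in EPS, beside 11.6% of all tested genes in either direction and 8.4% in that direction. With edgeR on the recovered reads 0 of the 9 passed the thresholds, beside 3.29% of all genes, and 0 had an unadjusted P under 0.05, beside 11.6%. With DESeq2 both counts were also 0, beside 3.06% and 10.6%. The lowest adjusted p among the 9 was 0.319 in limma, 0.435 in edgeR and 0.397 in DESeq2. The EPS libraries lay above all control libraries in 1 of the 9, again Nfatc1, beside 7.76% of all genes, and below them in 0 of the 9, beside 2.85%. Without control replicate 4 they lay above in 2 of the 9, Nfatc1 and Rcan1, beside 13.2% of all genes, and below in 0 of the 9, beside 6.55%. In that fit 0 of the 9 passed the thresholds, beside 1.09% of all genes, and 2 of the 9, the same pair, had an unadjusted P under 0.05, beside 11.2%. Counts of 1 or 2 in 9 genes are near these shares. The median gene with a mean of at least 1 CPM was itself 0.10 higher in EPS on the log2(CPM + 1) scale, and the 9 genes relative to it were at 0.73 for Rcan2, 0.52 for Nfatc1, 0.45 for Nfatc4, 0.15 for Nfatc3, 0.00044 for Ppp3cb, -0.15 for Rcan1, -0.20 for Ppp3ca, -0.27 for Ppp3r1 and -0.30 for Nfatc2.

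**Figure D1:**
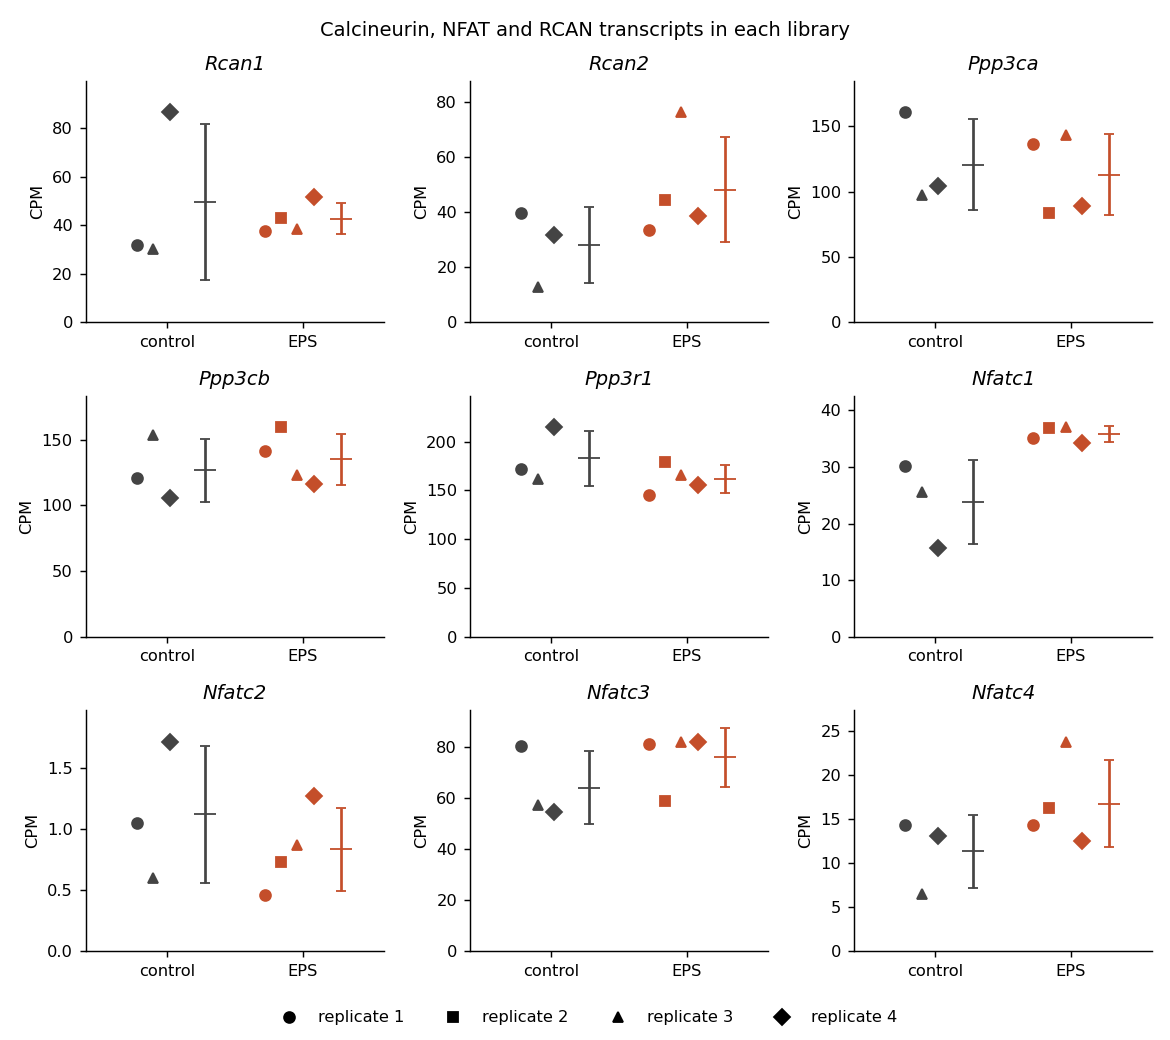
CPM (reads scaled to the library's total) of each of the 9 transcripts in the 3 control (dark grey) and 4 EPS (red) libraries, with the replicate number as the shape of the point and the group mean ± SD beside the points. Nfatc1 is the only panel in which the groups are apart, from 34.3 to 37.0 CPM in EPS and from 15.6 to 30.2 CPM in control, and control replicate 4 lies alone at 86.6 CPM of Rcan1.

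Among the NFAT genes, Nfatc1 (ENSMUSG00000033016.16, chromosome 18, minus strand) encodes the family member that accumulates in nuclei of slow fibers. It was at 30.2, 25.6 and 15.6 CPM in control replicates 1, 3 and 4, and at 35.1, 36.9, 37.0 and 34.3 CPM in EPS replicates 1 to 4. The groups did not overlap, with EPS higher, and the EPS libraries lay closer together than the control libraries. The means were 23.8 ± 7.47 CPM (SD, n = 3) and 35.8 ± 1.35 CPM (SD, n = 4). The log2 fold change was 0.62 (SE 0.22, 95% interval 0.12 to 1.12, adjusted p = 0.319 from limma), or 0.52 relative to the median gene. The exact two-sided permutation test of 3 against 4 libraries gave p = 0.0286, the smallest it can give, and the same test is used for every gene below. The unadjusted P was 0.0215 in limma, 0.0524 in edgeR and 0.0592 in DESeq2. Without control replicate 4, the lowest library, the log2 fold change was 0.35 (95% interval 0.0033 to 0.70, adjusted p = 0.439 from limma).

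Nfatc3 (ENSMUSG00000031902.10) lies on the plus strand of chromosome 8 of GRCm38 from 106058840 to 106130537. Its levels were 80.6, 57.3 and 54.6 CPM in control and 81.5, 58.9, 82.1 and 82.3 CPM in EPS. The libraries lay between 54.6 and 58.9 CPM or between 80.6 and 82.3 CPM, with both kinds in each group, so the groups overlapped. Its log2 fold change was 0.25 (95% interval -0.18 to 0.69, adjusted p = 0.664 from limma; exact permutation test, p = 0.171). Left out in turn, the libraries gave values from 0.15, without control replicate 4, to 0.43, without control replicate 1.

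Nfatc4 (ENSMUSG00000023411.12), on the plus strand of chromosome 14 from 55823144 to 55833943, was at 14.3, 6.56 and 13.1 CPM in control and at 14.4, 16.3, 23.8 and 12.5 CPM in EPS. EPS replicate 3 was the highest library and control replicate 3 the lowest, and EPS replicate 4 was below control replicates 1 and 4. The log2 fold change was 0.55 (95% interval -0.17 to 1.27, adjusted p = 0.556 from limma; exact permutation test, p = 0.171). Left out in turn, the libraries gave values from 0.23, without control replicate 3, to 0.74, without control replicate 1.

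Nfatc2 (ENSMUSG00000027544.16), on the minus strand of chromosome 2 from 168476410 to 168601657, had 10 to 38 reads in each library. It was at 1.05, 0.602 and 1.72 CPM in control and at 0.465, 0.731, 0.868 and 1.27 CPM in EPS. The groups overlapped, and control replicate 4 was the highest library. The log2 fold change was -0.20 (95% interval -0.67 to 0.28, adjusted p = 0.779 from limma; exact permutation test, p = 0.457). Without control replicate 4 it was -1.3e-05 (95% interval -0.44 to 0.44), and without control replicate 3 it was -0.38. On recovered reads, with no pseudocount of 1 CPM, it was -0.55 in edgeR and -0.56 in DESeq2, with unadjusted P of 0.332 and 0.329.

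Of the RCAN genes, Rcan1 (ENSMUSG00000022951.16) spans 92391953 to 92470867 on the minus strand of chromosome 16 and holds the pair of windows printed above. It was at 31.7, 30.3 and 86.6 CPM in control replicates 1, 3 and 4, from 543, 504 and 1915 reads, and at 37.5, 43.2, 38.6 and 51.5 CPM in EPS replicates 1 to 4. The 4 EPS libraries were above control replicates 1 and 3 and below control replicate 4. With all libraries the means were 49.5 ± 32.1 CPM (SD, n = 3) and 42.7 ± 6.38 CPM (SD, n = 4), and the log2 fold change was -0.05 (95% interval -0.82 to 0.73, adjusted p = 0.962 from limma; exact permutation test, p = 0.971). On recovered reads it was -0.33 in edgeR and -0.34 in DESeq2, with unadjusted P of 0.280 and 0.340. Without control replicate 4 the control mean was 31.0 CPM, the direction turned, and the log2 fold change was 0.44 (95% interval 0.038 to 0.84, unadjusted P = 0.0355 and adjusted p = 0.391 from limma). The exact permutation test of 2 against 4 libraries then gave p = 0.133, where the smallest it can give is 0.0667. Without EPS replicate 1 the log2 fold change was 0.011, so that the direction for Rcan1 turned with either of these libraries left out.

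Rcan2 (ENSMUSG00000039601.16), on the plus strand of chromosome 17 from 43801351 to 44039516, encodes another RCAN inhibitor. It had the largest log2 fold change of the 9, but also the widest interval. The levels were 39.8, 12.7 and 31.7 CPM in control and 33.5, 44.5, 76.3 and 38.7 CPM in EPS. Control replicate 3 was the lowest and EPS replicate 3 the highest library, and the other 5 lay between 31.7 and 44.5 CPM in both groups. The log2 fold change was 0.83 (95% interval -0.08 to 1.74, adjusted p = 0.472 from limma; exact permutation test, p = 0.143). Left out in turn, the libraries gave values from 0.36, without control replicate 3, to 1.15, without control replicate 1 (unadjusted P = 0.0230 in limma), and 0.99 without control replicate 4.

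Rcan2 and Nfatc4 had the same lowest and the same highest library. Across the 7 libraries their log2(CPM + 1) values had a Pearson r of 0.98, the highest of the 36 pairs among the 9 genes, and 0.98 without control replicate 4. For Rcan1 and Nfatc1 r was -0.63 over 7 libraries and 0.71 over the 6 without control replicate 4. The libraries of a pair share their depth and scaling, and these values describe 7 points.

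Of the catalytic subunits, Ppp3ca (ENSMUSG00000028161.17, plus strand of chromosome 3 from 136670124 to 136937727) encodes the alpha form. It was at 161, 97.2 and 104 CPM in control and at 136, 83.5, 144 and 88.9 CPM in EPS. The 3 highest libraries were control replicate 1 and EPS replicates 1 and 3, and the other 4 were between 83.5 and 104 CPM, so libraries of both groups lay in each range. The log2 fold change was -0.10 (95% interval -0.68 to 0.49, adjusted p = 0.892 from limma; exact permutation test, p = 0.8). Left out in turn, the libraries gave values from -0.23, without control replicate 3, to 0.12, without control replicate 1, so the direction turned. Without control replicate 4 the value was -0.18.

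Ppp3cb (ENSMUSG00000021816.11, minus strand of chromosome 14 from 20499364 to 20546573) encodes the beta form. Its levels were 121, 153 and 106 CPM in control and 142, 159, 123 and 116 CPM in EPS. The groups overlapped over nearly their whole range. The log2 fold change was 0.10 (95% interval -0.31 to 0.51, adjusted p = 0.869 from limma; exact permutation test, p = 0.571), or 0.00044 relative to the median gene, and its sign turned with the scaling of the libraries, to -0.011 with median-of-ratios scaling.

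Ppp3r1 (ENSMUSG00000033953.10, plus strand of chromosome 11 from 17159263 to 17200375) encodes the calcium-binding regulatory subunit. It was at 172, 162 and 215 CPM in control and at 145, 179, 166 and 156 CPM in EPS, with control replicate 4 the highest library. Its log2 fold change was -0.17 (95% interval -0.53 to 0.18, adjusted p = 0.724 from limma; exact permutation test, p = 0.286), and -0.05 without control replicate 4. The intervals of Ppp3ca, Ppp3cb and Ppp3r1 lie inside a 2-fold change in either direction, with or without control replicate 4. So do those of Rcan1, Nfatc2 and Nfatc3, on a scale that understates changes of a gene as low as Nfatc2.

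**Figure D2:**
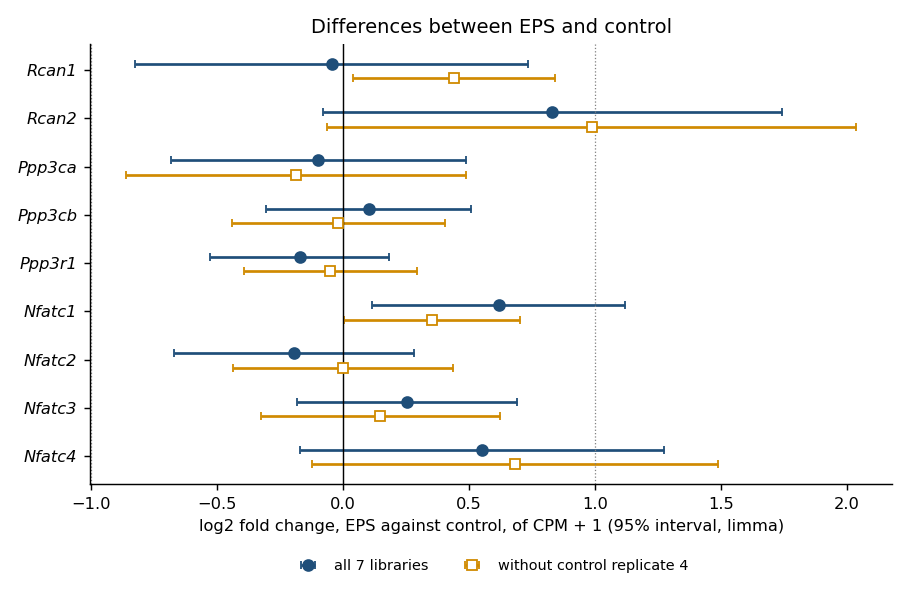
Log2 fold change of CPM + 1 between EPS and control for each of the 9 genes, with its 95% interval from limma, for all 7 libraries (filled) and without control replicate 4 (open). Dotted lines mark a 2-fold change. Nfatc1 has an interval above 0 in both fits, 0.12 to 1.12 and 0.0033 to 0.70, and Rcan1 moves from -0.05 to 0.44.

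Control replicate 4 was at an end of the 7 libraries for 6 of the 9 genes. It was the highest library for Rcan1, Ppp3r1 and Nfatc2, and the lowest for Ppp3cb, Nfatc1 and Nfatc3. Without it, the log2 fold change went from 0.62 to 0.35 for Nfatc1 and from 0.25 to 0.15 for Nfatc3. It went from -0.05 to 0.44 for Rcan1, from -0.17 to -0.05 for Ppp3r1, from -0.20 to -1.3e-05 for Nfatc2 and from 0.10 to -0.019 for Ppp3cb.

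Levels of different genes were compared only per length, as CPM per kb of the union of a gene's exons in GENCODE M21. Ppp3r1 stood highest in each library, with a median of 51.4 CPM per kb. Ppp3cb followed with a range of 12.0 to 18.1, and then came the medians of Rcan1 at 12.5, Ppp3ca at 10.4, Rcan2 at 8.84, Nfatc3 at 6.88, Nfatc1 at 4.59, Nfatc4 at 2.47 and Nfatc2 at 0.082 CPM per kb. Neighbours in this order overlapped in their ranges over libraries, except that Ppp3r1 lay above and Nfatc2 below all the others of the 9. With the longest coding transcript as the length, Ppp3ca (21.9) moved ahead of Rcan1 (16.6), and Nfatc3 (13.5) ahead of Rcan2 (11.7), so these orders depend on the transcript model. The order of the NFATC genes, Nfatc3, Nfatc1, Nfatc4 and Nfatc2, was the same with both lengths.

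**Figure D3:**
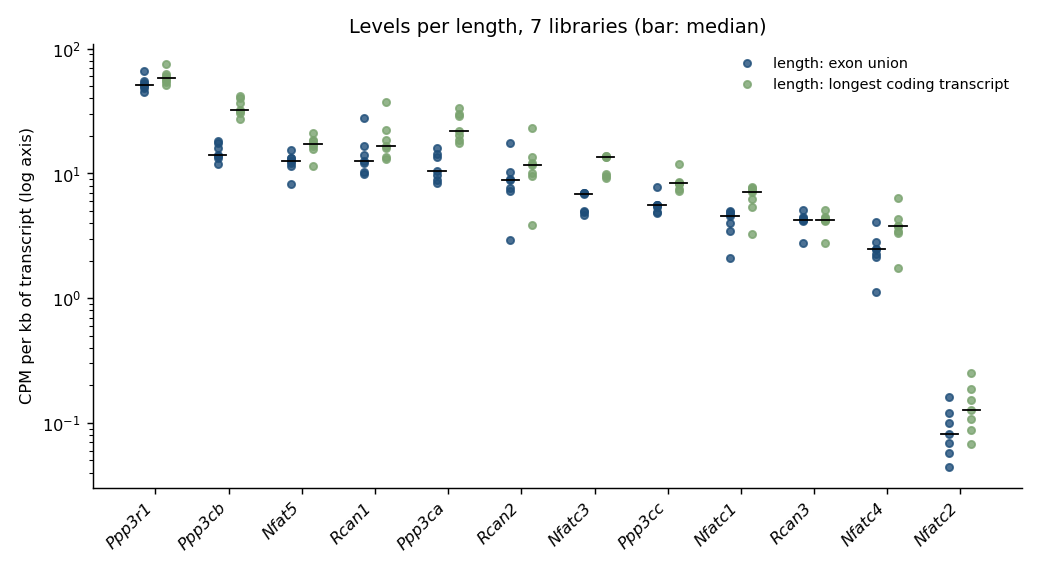
CPM per kb (log axis) of the 9 genes and of Nfat5, Ppp3cc and Rcan3, 1 point per library and a bar at the median of 7, with the exon union (blue) or the longest coding transcript (green) as the length. Ppp3r1 has the highest median and Nfatc2 the lowest, at 51.4 and 0.082 CPM per kb of exon union.

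Shares of each family's transcripts were taken per length of exon union. Nfatc3 made up 51.1 ± 0.305% (SD, n = 3) of the NFATC transcripts in control and 45.5 ± 5.27% (SD, n = 4) in EPS, and Nfatc1 made up 29.6 ± 6.67% and 33.9 ± 3.27%. Nfatc2 made up 1.04 ± 0.642% and 0.556 ± 0.231%, and its control share was 0.736%, 0.599% and 1.77% in replicates 1, 3 and 4. Ppp3cb gave 45.2 ± 7.30% of the catalytic subunit transcripts in control and 47.1 ± 4.75% in EPS, and Ppp3ca gave 37.9 ± 8.23% and 34.6 ± 8.05%. Rcan1 gave 58.1 ± 15.1% of the RCAN transcripts in control and 47.8 ± 8.63% in EPS. Its control share was 43.4%, 57.0% and 73.7% in replicates 1, 3 and 4, where the EPS libraries ranged from 35.7% to 56.0%. Control replicate 4 was the highest library for the shares of Nfatc2 and Rcan1 and the lowest for that of Nfatc1. No test was made of these shares, which do not depend on a library's scaling but do depend on the lengths used.

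Of the 4 paralogs that complete these families, 0 passed the thresholds, beside 1.41% of all tested genes. With so few genes this count is near that share. Nfat5, a family member that responds to osmotic stress and is not controlled by calcineurin, was at 207 ± 48.2 CPM (SD, n = 3) in control and 243 ± 30.6 CPM (SD, n = 4) in EPS. Rcan3 was at 19.6 ± 4.76 and 22.9 ± 2.16 CPM, and Ppp3cc, the gamma catalytic subunit, at 15.8 ± 0.968 and 17.7 ± 3.89 CPM. Their log2 fold changes were 0.25, 0.24 and 0.13 in limma, with adjusted p from 0.675 to 0.847. Control replicate 4 was the lowest library for Nfat5 and Rcan3, and without it the log2 fold changes were 0.05, 0.028 and 0.17. That of Ppp3cc was 0.0014 without EPS replicate 2, and also 0.0014 with quantile normalization. Ppp3r2, the regulatory subunit of the testis, had at most 0.093 CPM in a library, below the level of 3 reads.

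In a list of 16 genes for calcineurin-binding, scaffold and related proteins, 0 passed the thresholds, beside 1.41% of all tested genes. An unadjusted P under 0.05 in limma was reached by 1, beside 11.6%. In this list the median log2 fold change was 0.04, as it was over all tested genes (0.04). Groups were apart in 3, with EPS higher in 2, beside 7.76% of all genes, and lower in 1, beside 2.85%. Without control replicate 4 the medians were 0.086 in this list and 0.035 over all tested genes. In that fit 2 of the 16 had an unadjusted P under 0.05, beside 11.2% of all genes. Groups were then apart in 3 with EPS higher, beside 13.2%, and in 2 with EPS lower, beside 6.55%. Myoz2, the calsarcin of slow and cardiac muscle, which tethers calcineurin at the Z-disc, was at 117, 134 and 161 CPM in control and at 205, 269, 192 and 165 CPM in EPS. Its groups did not overlap, and the log2 fold change was 0.58 (limma, adjusted p = 0.288; exact permutation test, p = 0.0571). Myoz1, the calsarcin of fast muscle, was at 1.92, 1.75 and 4.88 CPM in control and at 1.35, 1.17, 1.28 and 1.65 CPM in EPS, with groups apart and a log2 fold change of -0.62 (limma, adjusted p = 0.440) that was -0.27 without control replicate 4. DESeq2 called Myoz1, at -1.19. Calm2, 1 of 3 calmodulin genes, was at 205 ± 62.3 CPM (SD, n = 3) and 315 ± 97.2 CPM (SD, n = 4), with overlapping groups and an adjusted p of 0.461 in limma. Over all 7 libraries, the other gene of the list that was higher in EPS with groups apart was Chp1, listed under an older symbol. It was at 69.0, 72.2 and 43.3 CPM in control replicates 1, 3 and 4 and at 72.6 to 96.1 CPM in EPS. Its log2 fold change in limma was 0.40, and 0.17 without control replicate 4. Chp1 was named after its values were seen.

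Of the 8 kinases that phosphorylate NFAT, 0 passed the thresholds, 0 had an unadjusted P under 0.05, and the groups overlapped in each. With 8 genes these counts of 0 are near the shares of all tested genes, which were 1.41% past the thresholds, 11.6% at an unadjusted P under 0.05, and 7.76% higher and 2.85% lower with groups apart. The median log2 fold change was 0.06, and 0.13 without control replicate 4. The lowest p-values were those of Dyrk1b, Csnk1d and Dyrk1a, with log2 fold changes of 0.31, 0.26 and 0.22 and adjusted p from 0.586 to 0.755 in limma. These values moved with single libraries, from 0.16 without control replicate 3 to 0.40 without control replicate 1 for Dyrk1b, from 0.14 without control replicate 4 to 0.41 without control replicate 1 for Csnk1d, and from 0.034 without control replicate 3 to 0.46 without control replicate 1 for Dyrk1a.

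Of the calcium entry genes that feed the pathway, 8 of 9 were tested, since Trpc6 was listed at 0 in all libraries, and 0 passed the thresholds, beside 1.41% of all tested genes. At an unadjusted P under 0.05 in limma, 1 was higher and 1 lower in EPS, beside 11.6% of all tested genes in either direction. Without control replicate 4 these counts were 0 and 1, beside 11.2%. Groups were apart in 1 gene with EPS lower, beside 2.85% of all genes, and in 1 with EPS higher, beside 7.76%. Stim2, a sensor of calcium in the endoplasmic reticulum, was at 92.9, 73.4 and 97.2 CPM in control and at 62.9, 60.8, 65.7 and 58.2 CPM in EPS. The groups did not overlap, with a log2 fold change of -0.49 (95% interval -0.82 to -0.16, adjusted p = 0.231 from limma; exact permutation test, p = 0.0286). Orai3, a channel subunit that STIM proteins open, lay the other way, at 13.5, 10.9 and 8.91 CPM in control and 15.5, 20.6, 15.9 and 17.2 CPM in EPS (log2 fold change 0.61, limma, adjusted p = 0.317). Trpc1 was at 2.49 ± 0.603 CPM (SD, n = 3) and 3.63 ± 0.676 CPM (SD, n = 4), with overlapping groups. The median of the list was 0.02, and 0.0060 without control replicate 4.

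The calmodulin-dependent kinases and their class IIa histone deacetylase targets form the arm of calcium signalling beside calcineurin. Of these 13 genes, 1 passed the thresholds, and groups did not overlap in 5, 2 higher and 3 lower in EPS, beside 7.76% higher and 2.85% lower of all tested genes. Over all genes, 1.41% passed the thresholds. At an unadjusted P under 0.05 in limma, 2 of the 13 were higher and 3 lower in EPS, beside 11.6% of all tested genes in either direction. Without control replicate 4 these counts were 3 and 2, beside 11.2%. The median log2 fold change was 0.07, and -0.032 without control replicate 4. Camk1d, a calmodulin kinase of the CaMKI group, rose from 1.40, 2.47 and 1.85 CPM in control to 5.12, 3.80, 4.89 and 6.85 CPM in EPS, with a log2 fold change of 1.08 (SE 0.26, adjusted p = 0.151 from limma; exact permutation test, p = 0.0286). The groups did not overlap. The change was under 2-fold without control replicate 1 (0.95), without EPS replicate 4 (0.96), and with quantile (0.96) or median-of-ratios scaling (1.00, just under the threshold). On recovered reads Camk1d was called in edgeR at 1.34 (adjusted p = 0.0668) and in DESeq2 at 1.33 (adjusted p = 0.009998). The other 4 with groups apart were named after their values were seen, and none passed the thresholds. Hdac7 was at 50.0 ± 1.33 CPM (SD, n = 3) and 86.0 ± 11.2 CPM (SD, n = 4), Camkk2 at 34.6 ± 1.83 and 22.6 ± 2.92 CPM, Camk2a at 152 ± 21.3 and 92.9 ± 26.5 CPM, and Camk2b at 13.6 ± 2.18 and 8.14 ± 2.58 CPM.

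Lists of genes that lie downstream of the pathway were set beside these genes. The 11 slow-fiber genes had a median log2 fold change of -0.045, and of -0.0097 without control replicate 4. Among them 1 passed the thresholds, lower in EPS, beside 0.439% of all tested genes in that direction. That gene was Myh7b, a slow-type myosin heavy chain, which fell, with means of 16.3 ± 6.81 CPM in control and 2.44 ± 1.32 CPM in EPS and a log2 fold change of -2.35 (limma, adjusted p = 0.0712). On recovered reads Myh7b was called in edgeR at -2.84 (adjusted p = 0.00016) and in DESeq2 at -2.86 (adjusted p = 1.3e-08). Myh7, Tnni1, Atp2a2 and Mb, also on the list and named after their values were seen, were without a call, with adjusted p from 0.515 to 0.961 in limma. Of 12 genes that have been described as NFAT targets in muscle or other cells, 10 were above 0 in a library. Of these 10, 0 passed the thresholds, beside 1.41% of all tested genes. Il4 and Il13 were listed at 0 in all libraries, and Tnf and Mstn, also named after their values were seen, had at most 3 reads in any library. At an unadjusted P under 0.05 there were 3, all higher in EPS, beside 8.4% of all tested genes in that direction, and the median was 0.19. They were Ptgs2, Ccna2 and, named after its values were seen, Nppb, with 0 to 8 reads in control and 11 to 52 in EPS. Nppb was at 0.180 ± 0.263 and 1.13 ± 1.09 CPM. It was the 1 gene of the 10 with groups apart, EPS higher, beside 7.76% of all tested genes. Its log2 fold change was 0.76 (limma, adjusted p = 0.396), on a scale that understates changes at such low levels, and 0.65 without control replicate 4. Ptgs2, which encodes cyclooxygenase 2, was at 15.2, 26.0 and 9.54 CPM in control and at 19.7, 39.0, 31.4 and 56.9 CPM in EPS, a log2 fold change of 1.09 (limma, adjusted p = 0.332; exact permutation test, p = 0.114) with overlapping groups, since EPS replicate 1 was below control replicate 3. edgeR and DESeq2 on recovered reads called it, at 1.02 and 1.01, as did limma without control replicate 3 (1.44) or without EPS replicate 1 (1.34), and it was at 0.76 without control replicate 4. Ccna2, cyclin A2, is also a gene of cycling cells and was at 48.1 ± 13.2 and 97.6 ± 50.9 CPM with overlapping groups. Myf5 was at 6.11 ± 1.96 and 7.41 ± 3.11 CPM. Without control replicate 4, 0 of the 10 had an unadjusted P under 0.05, beside 11.2% of all tested genes, and the median was 0.089.

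**Figure D4:**
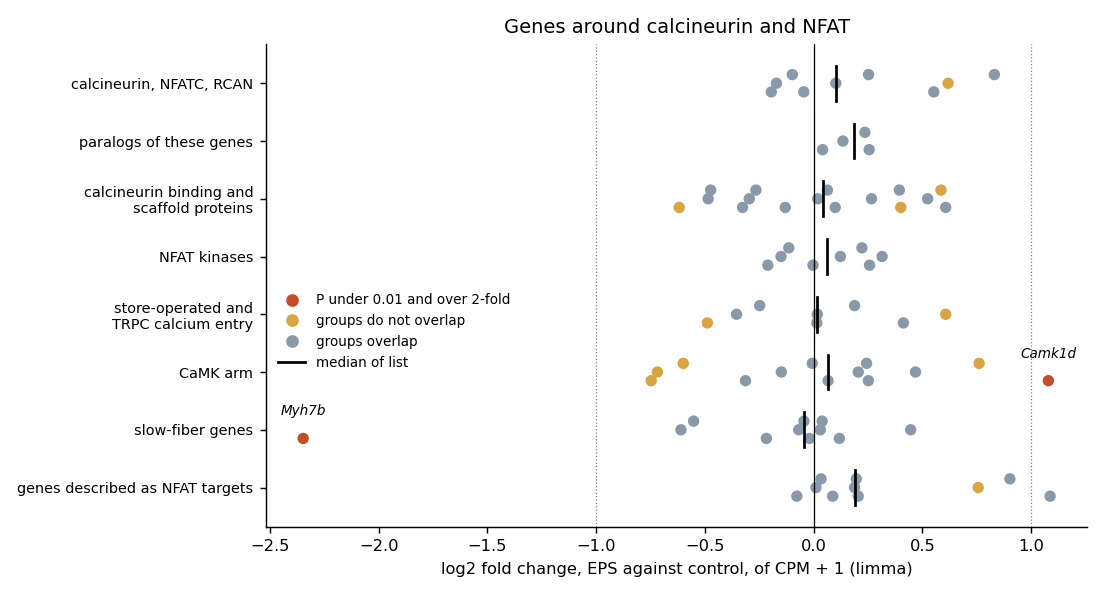
Log2 fold change of CPM + 1 in limma for the 9 genes and 7 surrounding lists, 1 point per gene tested, with a bar at each list's median. Red points passed P under 0.01 and 2-fold (Camk1d at 1.08 and Myh7b at -2.35), and yellow points are the other genes whose groups did not overlap. Medians lie between -0.045 and 0.19.

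Nfatc1 was the gene among the 9 with an unadjusted P under 0.05, and the genes whose libraries followed it most closely were looked up among 10468 others with a mean of at least 5 CPM. They were Plekhm3, Nipa1, Zfp518a, Fam102b and Clip3, with Pearson r from 0.988 to 0.994 over the 7 libraries. Since they were chosen for this likeness, they share the order of Nfatc1, with control replicate 4 lowest and EPS above control, by the choice itself. Plekhm3 was at 27.9, 25.7 and 16.6 CPM in control and at 32.3, 34.0, 35.2 and 30.5 CPM in EPS. Clip3 had the largest difference of the 5, at 0.75 (adjusted p = 0.228 from limma), and 0.49 without control replicate 4.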

How the data were processed

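Poly(A) RNA of 7 C2C12 myotube libraries was sequenced as paired-end reads of 100 bp from a directional kit. The authors mapped reads to GRCm38 with STAR 2.5.4b, as the submitters' processing notes also state, and deposited CPM per gene and library, that is the reads of a gene scaled to the total over all listed genes of its library. The read counter, annotation, strand setting and treatment of multi-mapping reads are not given in the sources used here. Genes that overlap another gene in GENCODE M21 can therefore hold its reads, among them Rcan1 (antisense Gm46555), Ppp3cb (antisense 1810062O18Rik), Nfatc1 (antisense AC123818.1), Ppp3r1 (Wdr92), Nfatc3 (Esrp2) and Ppp3r2 (Grin3a).

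Each library's values could be turned back into reads, 100% of them being whole within 0.02 reads. The level of 3 reads was 0.136 to 0.181 CPM, which covers counting error only. log2(CPM + 1) was tested with limma 3.58.1 in R 4.3.3 (mean-variance trend, no covariate) for the 19144 genes that had a read in any library, with Benjamini-Hochberg adjustment over all of them. A gene was called where P was under 0.01 before adjustment and the fold above 2. Fold changes are on the log2(CPM + 1) scale, which understates changes of low genes. A count test was not the main test because the deposited unit is CPM. edgeR 4.0.16 and DESeq2 1.42.0 on recovered reads were alternatives, beside pseudocounts of 0.1 and 0.5, a mean of at least 1 CPM, median-of-ratios scaling or quantile normalization, a replicate block, robust empirical Bayes, P under 0.001 and leaving out each library. The scripts were tested on simulated data. Replicates of a group differed by more than sampling noise in each pair.

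The genes and lists were chosen with earlier results of these data known. Named from each surrounding list are the genes that passed the thresholds, or otherwise the 3 with the lowest P above a mean of 1 CPM, all paralogs, and for a gene of the 9 with P under 0.05 the 5 genes most correlated with it. Genes named outside this rule are said to be named after their values were seen, and marker lists are described mainly by their sums. Symbols absent from the data were matched by a RefSeq synonym. Gene coordinates are those of GENCODE M21 and start sites those of RefSeq.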

Additional observations from a re-analysis of the deposited data

Results flagged for a closer look

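In the EPS group, Nfatc3 of EPS replicate 2, at 58.9 CPM, lay apart from the other EPS libraries, which were within 81.5 to 82.3 CPM. Its gap to the nearest library was 0.966 of the range of the group, above Dixon's 95% critical value for 4 libraries. Such a gap arises by chance in about 1 in 20 groups, and it was looked for in the 9 genes and the other named genes of the lists. The control value of 57.3 CPM in replicate 3 and of 54.6 CPM in replicate 4 was close to that of EPS replicate 2. The cause was not tested.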

How the results depend on the processing

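None of the 9 genes passed the thresholds under any alternative. Over the 13 alternatives that can move a gene's fold change on their own, 117 values in all, 9 turned in direction. For Rcan1 the log2 fold change turned from -0.05 to 0.44 without control replicate 4 and to 0.011 without EPS replicate 1, within a range of -0.30 to 0.44 over the libraries left out. For Ppp3ca it ran from -0.23 to 0.12, and was above 0 without control replicate 1 (0.12), EPS replicate 2 (0.032) or EPS replicate 4 (0.0023). For Ppp3cb it was -0.011 with median-of-ratios scaling, -0.0055 in edgeR, -0.018 in DESeq2 and -0.019 without control replicate 4, within -0.019 to 0.25 over the libraries left out. Myf5 was at -0.019 without EPS replicate 2, within -0.019 to 0.42. The number of genes with EPS above all control libraries was 2 of 9 without control replicate 4, an alternative chosen after seeing the data, where it was 1 with all libraries. The cause of these turns was not tested.

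Over all genes, 269 passed in limma, 601 with a pseudocount of 0.1, 629 in edgeR, 585 in DESeq2 and 106 at P under 0.001. Of the 269, 68.8% were higher in EPS, against 52.8% with median-of-ratios scaling and 51.6% with quantile normalization. Depth limits Ppp3r2, which was under 3 reads in each library.

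With the replicate number as a block, over the 3 pairs that share a number and so without EPS replicate 2, Ppp3ca was at 0.032 and Myf5 at -0.019, the same values as without EPS replicate 2 and no block, and no call among the 9 changed. The block gave 276 genes over all, against 275 without EPS replicate 2 and no block. With EPS replicate 2 kept as its own level of the replicate block, added after seeing the data, 161 genes passed, Ppp3ca was again at 0.032, and the P of Nfatc1 in limma was 0.058. Deviations of same-numbered libraries from their group means correlated across genes at 0.25 in replicate 1, while replicates 3 and 4 gave -0.45 and 0.068. Deviations within a group are tied to each other, so these values cannot decide whether the same number marks a shared culture.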

Other observations

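Libraries of both groups shared patterns that the groups do not describe. Over 12256 genes with a mean of at least 1 CPM, the deviations from the group mean of control replicate 1 had a correlation of 0.59 with those of EPS replicate 3 and of -0.46 with those of EPS replicate 2. Deviations within a group sum to 0, so the other libraries' correlations are not separate observations. Ppp3ca had the same division, at 161, 136 and 144 CPM in control replicate 1 and EPS replicates 1 and 3, and between 83.5 and 104 CPM in the others. The NFAT kinase Gsk3b, at 184 CPM in control replicate 1 and 171 CPM in EPS replicate 3 against 105 to 140.3 CPM elsewhere, and Akap6, at 302 and 281 CPM in the same pair against 124 to 227 CPM elsewhere, were highest in the same pair. These genes were named after their values were seen, and no test was made.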
